A study of Mus musculus with 32 samples.

Results

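IGHV5-2 and IGHV2-2 are the heavy chain V genes closest to the D genes among those that carry no pseudogene label in the mouse gene table (assembly GRCm38.p6, chromosome 12), where they hold ranks 1 and 2. IGHV5-2, known as VH81X, was read in the Vh7183 amplicon and IGHV2-2 in the Vhq52 amplicon, each named for the V family its primer amplifies. A clonotype, here a CDR3 sequence with its V, D and J genes, was a member when its first listed V gene was IGHV5-2 or IGHV2-2. That gave 17 IGHV5-2 clonotypes of 168 in Vh7183 and 65 IGHV2-2 clonotypes of 138 in Vhq52, or 82 of the 908 productive clonotypes of the series. Every one of the 82 listed a single V gene.

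The cells were pro-B cells, gated as B220+ CD43+ IgM- CD25-, from the bone marrow of untreated mice 8 weeks old that were either controls (WT) or Setd2 knockouts (KO). SETD2 is the enzyme that places the trimethyl mark on histone H3 lysine 36 along transcribed gene bodies. The labels read here give the genotype as WT or KO, with no strain, allele or Cre driver. Genomic DNA was amplified from a V family primer to JH4, and a 500 bp band was cut from the gel. Vh7183 was read in 5 WT and 5 KO mice and Vhq52 in 5 WT and 4 KO mice, each amplicon in a single sequencing batch. Amplicons of genomic DNA carry neither Setd2 expression nor cell markers, so genotype and cell type rest on the labels.

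A heavy chain gene is built in pro-B cells by RAG cutting, first D to JH and then V to DJ. Opened hairpin ends can leave short palindromic (P) bases, nucleases trim the ends, and the polymerase TdT adds bases with no template. Rearrangement of V genes near D is less dependent on locus contraction than that of distant V genes. IGHV5-2 in particular is known for frequent rearrangement early in B cell development and for heavy chains that often pair poorly with the surrogate light chain.

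The libraries were shallow in clonotypes. Vh7183 libraries held 13 to 35 clonotypes and 1033 to 1457 productive reads in WT mice, against 9 to 17 clonotypes and 387 to 3045 reads in KO mice. Vhq52 libraries held 10 to 28 clonotypes and 2012 to 7585 reads in WT mice, against 7 to 14 clonotypes and 2246 to 4422 reads in KO mice. Reads carry no molecular identifiers, so intervals on read shares cover counting error only. Some libraries also shared CDR3 sequences with another mouse of the amplicon. In Vhq52 these held 95.9% of the reads of KO 1464 and 96.7% of those of WT 1418, but no reads of WT 1485 or KO 1421. The other Vhq52 libraries lay between, from 7.60% in KO 1500 to 79.7% in WT 1536. In Vh7183 shared sequences held 61.3% of the reads of WT 1432, 36.4% of WT 1484 and 25.1% of KO 1500. The other Vh7183 libraries had at most 0.13%. None of the 17 IGHV5-2 clonotypes and 7 of the 65 IGHV2-2 clonotypes had a shared sequence.

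The V bases that reach into the CDR3 set what a member join starts with. They are shown as read in joins whose V end was not trimmed, in lower case, with P bases in capitals.
IGHV5-2, whole V end: tgtgcaagaca
IGHV5-2, V end with 2 P bases: tgtgcaagacaTG
IGHV2-2, whole V end: tgtgccagaaa
IGHV2-2, V end with 2 P bases: tgtgccagaaaTT
The whole IGHV5-2 end had 11 bases, whereas the whole ends of IGHV5-4, IGHV5-6, IGHV5-12 and IGHV5-17, the other V genes of the amplicon with 10 or more clonotypes, had 9. IGHV2-2 shared its 11 bases with IGHV2-9-1, so the CDR3 does not separate that pair, and the call rests on V bases before the CDR3. In both members the P bases were the reverse complement of the last V bases.

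IGHV5-2 joins kept a recognisable start. Of 17 joins, 16 began with the residues CAR. The next residue was H in 5, Q in 4, R in 4, P in 2, and L and D in 1 each. The codon of H was made of the last V bases and the first P base, and all 5 joins with P bases read CARH. In the other V genes of Vh7183 the residue after the first 3 was H in 12 of 151 joins. IGHV2-2 joins began with CAR in 47 of 65 cases, and the next residue was K in 11, N in 11 and G in 10. All 4 residues up to CARN can be read from the V end and its P bases, and CARK needs a single further base.

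The share of clonotypes that used IGHV5-2 was similar in range in both genotypes. It was 16.7% in WT 1418, 5% in WT 1432, 2.86% in WT 1484, 15.4% in WT 1485 and 16.7% in WT 1536. In the KO mice it was 18.2% in 1421, 5.88% in 1423, 13.3% in 1464 and 16.7% in 1487, with no IGHV5-2 clonotype in 1500. The ranges overlapped, with low mice in each genotype. KO 1500 had 9 clonotypes in all, and 0 of 9 allows a share of up to 33.3%. WT mice averaged 11.3% ± 6.81 (SD, n = 5) and KO mice 10.8% ± 7.68 (SD, n = 5). KO minus WT was -0.50 percentage points (95% interval -13.1 to 11.7, two-sided exact permutation p = 0.865). Without 1 mouse at a time the difference ran from -2.62 to 2.20 and had no stable sign. With only clonotypes of at least 10 reads it was 7.90 points (exact permutation p = 0.198). That filter removed 8 of 10 IGHV5-2 clonotypes in WT mice and 1 of 7 in KO mice.

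**Figure D1:**
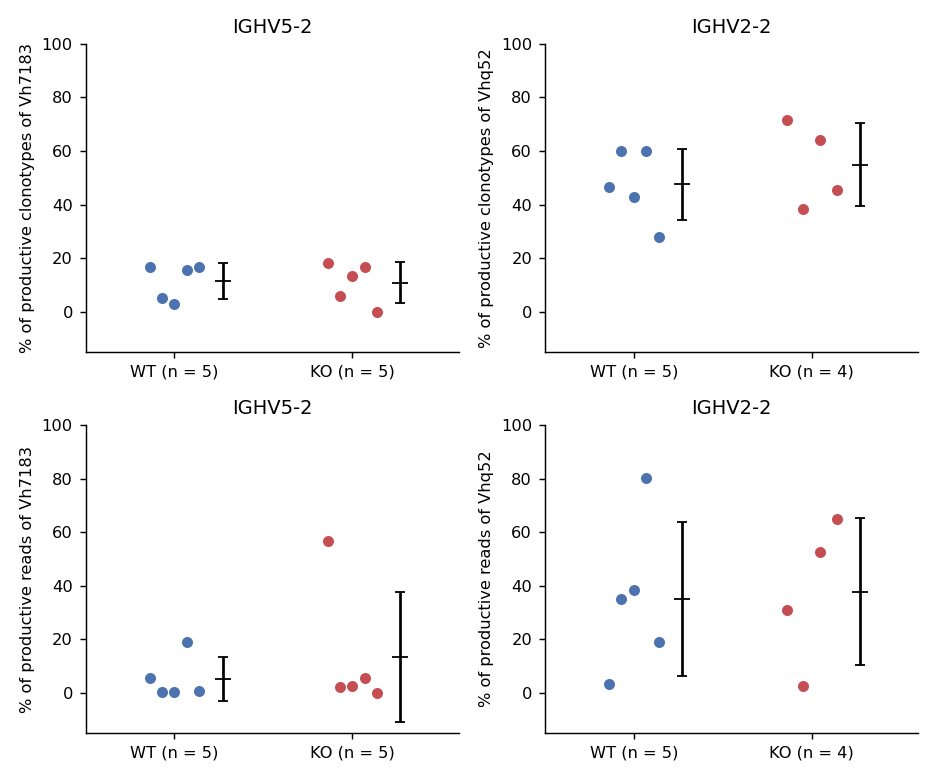
Percentage of productive clonotypes (top) and of productive reads (bottom) that used IGHV5-2 in Vh7183 (left) or IGHV2-2 in Vhq52 (right). Each point is a mouse, and the bar beside each group is the mean ± SD. WT and KO points overlap in all 4 panels.

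IGHV2-2 was the leading V gene of its amplicon, with 47.1% of the Vhq52 clonotypes, ahead of IGHV2-3 with 17.4% and IGHV2-9-1 with 13.8%. Its share in the WT mice was 46.7% in 1418, 60% in 1432, 42.9% in 1484, 60% in 1485 and 28% in 1536. In the KO mice it was 71.4% in 1421, 38.5% in 1464, 64.3% in 1487 and 45.5% in 1500. The highest and second-highest values were KO and the lowest was WT, but the groups overlapped. WT mice averaged 47.5% ± 13.4 (SD, n = 5) and KO mice 54.9% ± 15.5 (SD, n = 4), 7.40 points higher in KO (95% interval -18.0 to 32.4, exact permutation p = 0.452). With only clonotypes of at least 10 reads the difference was -4.56 points, and without CDR3 sequences found in another mouse it was 0.46 points.

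IGHV5-2 was not a leading gene of Vh7183. It ranked 5 of 12 V genes by clonotypes, at 10.1%, behind IGHV5-17 (22.0%), IGHV5-4 (17.9%), IGHV5-6 (13.7%) and IGHV5-12 (10.7%). Over mice, the medians of these genes lay between 8.39% and 16.5%, with IGHV5-2 at 14.4%, and each of the 5 genes ranged from 0 to at least 18.2%. Neighbours in this order therefore lay within the spread between mice. Position next to D goes with a different rank in each amplicon. The amplicons used different V primers, so levels were not compared across them.

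edgeR's quasi-likelihood test on clonotypes per V gene called 0 of 5 V genes in Vh7183 (0%) and 0 of 4 in Vhq52 (0%) at a Benjamini-Hochberg adjusted p under 0.05. At an unadjusted p under 0.05 it called 0 in Vh7183 and 1 in Vhq52, IGHV2-3, and DESeq2 called 0 in each. The log2 fold change of KO over WT was 0.16 ± 0.74 (SE; edgeR adjusted p = 0.951) for IGHV5-2. For IGHV2-2 it was 0.27 ± 0.33 (SE; edgeR adjusted p = 0.617). Both signs turned under TMM normalization, to -0.25 and -0.071. Of 13 alternatives, 5 turned the sign for IGHV5-2, and TMM was the 1 that did so for IGHV2-2. Neither fold change was larger than its SE.

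Partner JH genes were spread widely in the members. IGHV5-2 was joined to IGHJ2 in 8 clonotypes, IGHJ3 in 5, IGHJ4 in 4 and IGHJ1 in none of 17. IGHV2-2 was joined to IGHJ2 in 21, IGHJ3 in 19, IGHJ4 in 18 and IGHJ1 in 7 of 65. In the other V genes of the same libraries IGHJ4 led, with 88 of 151 clonotypes in Vh7183 and 47 of 73 in Vhq52. In Vh7183 its part, pooled over mice, was 65 of 94 in WT mice and 23 of 57 in KO mice. IGHJ3 had 18 and IGHJ2 had 14 of those 57. By mouse, this IGHJ4 part ran from 45.5% to 78.9% in WT mice. In KO mice it ran from 11.1% in 1421 to 88.9% in 1500, so KO 1500 lay above every WT mouse. The genotypes were not tested for it. In Vhq52 IGHJ4 had 35 of 52 in WT mice and 12 of 21 in KO mice. The PCR primer lay at IGHJ4, and joins to the other JH genes keep more DNA up to it and give longer products, from which the 500 bp band was cut. The part of product length in these shares was not tested.

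By mouse, IGHV2-2 had an IGHJ4 share of 14.3% in WT 1418, 44.4% in WT 1432, 33.3% in WT 1484, 16.7% in WT 1485 and 42.9% in WT 1536. The KO mice had 20% in 1421, 20% in 1464, 11.1% in 1487 and 40% in 1500. The other V genes of these libraries had 100%, 33.3%, 62.5%, 50% and 72.2% in the WT mice and 50%, 62.5%, 80% and 33.3% in the KO mice, in the same order. IGHV2-2 was lower in 7 of 9 mice, and higher in WT 1432 and KO 1500. The mean was 27.0% ± 13.2 (SD, n = 9) against 60.4% ± 21.7, a difference of -33.5 points (95% interval -57.6 to -10.2, two-sided exact sign-flip p = 0.0156). After Benjamini-Hochberg adjustment over the 18 exact tests made here the p was 0.281, so the difference did not pass. Without CDR3 sequences found in another mouse it was -24.7 points (exact p = 0.0625, 8 mice). Over the alternatives that did not leave out a mouse, the difference lay between -48.9 and -24.7.

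IGHV5-2 had the same direction in 7 of 9 mice, on fewer joins. Its IGHJ4 share was 0% in WT 1432, WT 1484, WT 1536, KO 1423, KO 1464 and KO 1487, 33.3% in WT 1418, 50% in KO 1421 and 100% in WT 1485. The other V genes of these libraries had 60%, 78.9%, 76.5%, 45.5% and 66.7% in WT 1418, 1432, 1484, 1485 and 1536. In KO 1421, 1423, 1464 and 1487 they had 11.1%, 37.5%, 38.5% and 30%. The IGHV5-2 shares rest on 1 to 3 joins a mouse. The mean was 20.4% ± 35.1 (SD, n = 9) against 49.4% ± 22.7 for the other V genes, a difference of -29.0 points (95% interval -63.0 to 8.52, exact sign-flip p = 0.102, adjusted p = 0.609). Leaving out KO 1421 or WT 1485, the pair in which IGHV5-2 was higher, gave -37.5 and -39.5 points, each with an exact p of 0.0469. Weighted by reads the difference was -60.1 points (exact p = 0.0234). With only clonotypes of at least 10 reads it was -9.26 points (exact p = 0.656, 6 mice), so its size was not stable.

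**Figure D2:**
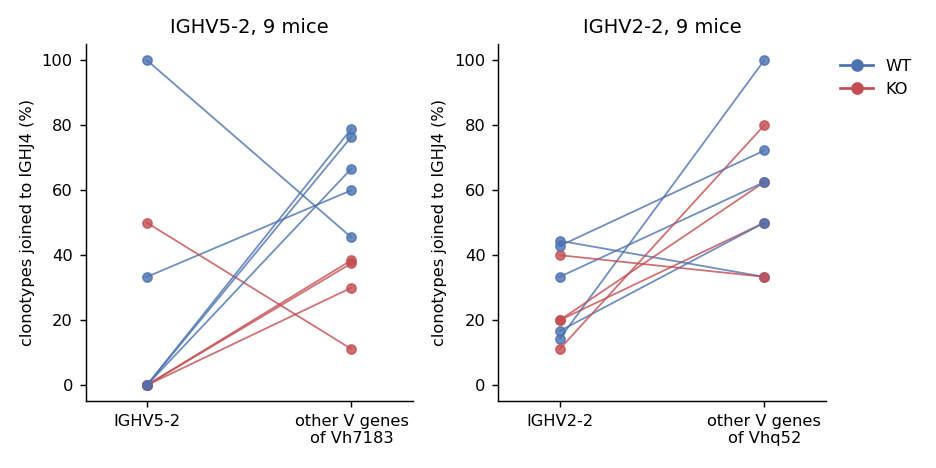
Percentage of clonotypes joined to IGHJ4 in the member gene and in all other V genes of the same library, with a line for each mouse (blue, WT; red, KO). The line rises from the member to the other genes in 7 of 9 mice for each gene; 6 mice have no IGHV5-2 join to IGHJ4.

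Between genotypes the IGHJ4 share over all clonotypes did not differ beyond the spread. For IGHV5-2 WT mice averaged 26.7% ± 43.5 (SD, n = 5) and KO mice 12.5% ± 25 (SD, n = 4). KO minus WT was -14.2 points (95% interval -78.2 to 48.7, exact permutation p = 0.722). With only clonotypes of at least 10 reads it was -87.5 points, in 6 mice (exact permutation p = 0.0667). The only WT mice left were 1418 and 1485, where every such join was to IGHJ4. That p is the smallest these 6 mice allow, so the test could not pass 0.05. For IGHV2-2 WT mice averaged 30.3% ± 14.2 (SD, n = 5) and KO mice 22.8% ± 12.2 (SD, n = 4). KO minus WT was -7.54 points (95% interval -28.1 to 14.5, exact permutation p = 0.421). Intervals of this width leave large differences in either direction possible.

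The D genes of the members are given as a description. The DSP2 family (IGHD2 genes) was found in 6 of 17 IGHV5-2 joins and in 36 of 65 IGHV2-2 joins. DFL16, the D genes farthest from JH, was in 2 and 17 joins. DST4 (IGHD3-2) was in 5 IGHV5-2 joins, from 5 different mice, and in 1 IGHV2-2 join. In the other V genes of Vh7183 DST4 was in 7 of 151 joins. DQ52, the D gene next to JH, was in no IGHV5-2 join and in 4 IGHV2-2 joins. No D was assigned in 4 and 6 joins. Near copies of a join count separately here, among them close DFL16 joins of WT 1418. A WT 1432 pair of near copies falls in both DFL16 and DSP2. The D match was as short as 5 bases, and the D counts were not tested.

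The 5 IGHV5-2 joins with DST4 are shown because they were seen in separate mice with different inserted bases, which are in capitals. They share the 7 D bases gctcagg.
WT 1432, IGHJ2, 4 reads: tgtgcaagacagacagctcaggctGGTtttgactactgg
WT 1536, IGHJ2, 3 reads: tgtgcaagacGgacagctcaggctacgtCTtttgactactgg
KO 1423, IGHJ3, 33 reads: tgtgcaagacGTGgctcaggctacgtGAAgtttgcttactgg
KO 1464, IGHJ2, 4 reads: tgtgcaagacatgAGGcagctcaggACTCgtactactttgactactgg
KO 1487, IGHJ2, 35 reads: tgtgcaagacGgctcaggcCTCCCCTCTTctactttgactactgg
The D part was 8 to 17 bases long and differed in all 5 joins. The encoded residues after CAR differed too, as in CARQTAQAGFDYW in WT 1432, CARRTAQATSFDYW in WT 1536 and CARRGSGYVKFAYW in KO 1423. WT 1432 had no inserted base between V and D, and KO 1487 had 10 between D and J.

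The 4 IGHV5-2 joins with no assigned D span the shortest junction and the largest clone of the gene.
WT 1484, IGHJ2, 4 reads: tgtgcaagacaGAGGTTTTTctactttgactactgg
WT 1536, IGHJ3, 2 reads: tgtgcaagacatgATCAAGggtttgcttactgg
KO 1421, IGHJ4, 622 reads: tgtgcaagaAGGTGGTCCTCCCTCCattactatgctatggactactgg
KO 1464, IGHJ3, 15 reads: tgtgcaagacatCttgcttactgg
The KO 1464 join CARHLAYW had 8 residues and a single inserted base. The KO 1421 join had 16 bases between V and J to which no D was assigned, so some of these may be D bases too short to call.

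**Figure D3:**
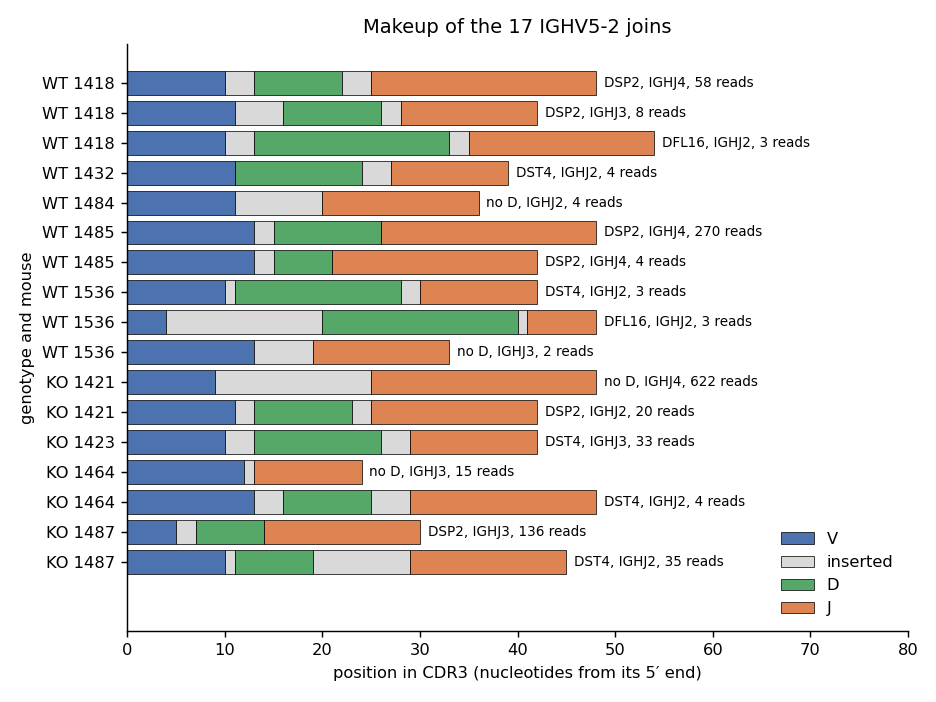
Makeup of each of the 17 IGHV5-2 joins in nucleotides from the 5′ end of the CDR3, with V, inserted, D and J bases as coloured blocks and the D family, JH gene and reads at the right. CDR3 lengths run from 24 to 54, and the blocks differ between the joins of a mouse except in WT 1485, where both joins have the same V and inserted blocks.

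No difference in CDR3 length passed its test. IGHV5-2 had a median of 42 nucleotides (range 24 to 54), IGHV2-2 a median of 42 (range 21 to 57), and the other V genes of both amplicons a median of 42. IGHV5-2 means per mouse were 48, 39, 36, 45 and 41 nucleotides in WT 1418, 1432, 1484, 1485 and 1536, and 45, 42, 36 and 37.5 in KO 1421, 1423, 1464 and 1487. The difference of KO from WT was -1.68 nucleotides (95% interval -9.75 to 6, exact permutation p = 0.619). It was -10.9 with at least 10 reads (exact p = 0.2, 6 mice) and -0.125 without WT 1418. IGHV2-2 means were 38.6, 37, 43.5, 37.5 and 47.6 nucleotides in the WT mice and 38.4, 40.8, 42 and 42.6 in the KO mice, and the KO mice lay within the WT range. That difference was 0.12 nucleotides (95% interval -5.94 to 5.48, exact permutation p = 0.984). Against the other V genes of the library IGHV5-2 differed by -1.95 nucleotides within mice (95% interval -7.06 to 2.93, exact sign-flip p = 0.359). IGHV2-2 differed by -1.04 nucleotides (95% interval -4.72 to 2.60, exact p = 0.504). The members differed from each other by 0.17 nucleotides (IGHV5-2 minus IGHV2-2, 95% interval -3.72 to 4.06, exact permutation p = 0.923). That test ignores that most mice were read for both genes. Paired within 8 mice the difference was 0.27 nucleotides (exact sign-flip p = 0.891).

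All 82 member joins had inserted bases. The count ran from 1 to 17 in IGHV5-2 (median 6) and from 2 to 26 in IGHV2-2 (median 6). The 17 belong to a WT 1536 join of 3 reads whose inserted bases repeat part of the IGHV5-2 V end. In the other V genes 4 of 151 joins in Vh7183 and 2 of 73 in Vhq52 had none. For IGHV5-2, WT mice averaged 5.73 ± 3.19 bases (SD, n = 5) and KO mice 6.62 ± 2.50 (SD, n = 4). KO minus WT was 0.89 (95% interval -3.83 to 5.75, exact permutation p = 0.683). For IGHV2-2, they averaged 6.09 ± 1.47 (SD, n = 5) and 7.75 ± 3.40 (SD, n = 4). KO minus WT was 1.66 (95% interval -2.14 to 5.73, exact permutation p = 0.397). It was 0.24 without KO 1500 (exact p = 0.875) and 3.14 weighted by reads (exact p = 0.222). The highest IGHV2-2 means were 12 and 9 bases, in KO 1500 and KO 1487, while KO 1421 and KO 1464 had 5 each. Against the other V genes the difference was -0.82 bases for IGHV5-2 (95% interval -3.88 to 2.34, exact sign-flip p = 0.523). It was 1.07 bases for IGHV2-2 (95% interval -1.32 to 3.38, exact sign-flip p = 0.301).

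The join with the most inserted bases was an IGHV2-2 join of KO 1500, shown for its run of alternating g and a (inserted bases in capitals).
KO 1500, IGHJ3, 75 reads: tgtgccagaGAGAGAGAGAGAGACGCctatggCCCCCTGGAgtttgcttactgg
It had 17 bases between V and a D match of 6 bases, and 9 between D and J.

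The composition of inserted bases is likewise a description. G made up 28.0% of the 107 inserted bases of IGHV5-2 and 47.3% of the 438 of IGHV2-2. In the other V genes it made up 42.0% of 1052 bases in Vh7183 and 37.4% of 446 in Vhq52. G and C together made up 56.1% in IGHV5-2 and 67.6% in IGHV2-2. A single IGHV5-2 join held 17 and another 16 of the 107 bases, and bases of a join are not independent, so no test was made.

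**Figure D4:**
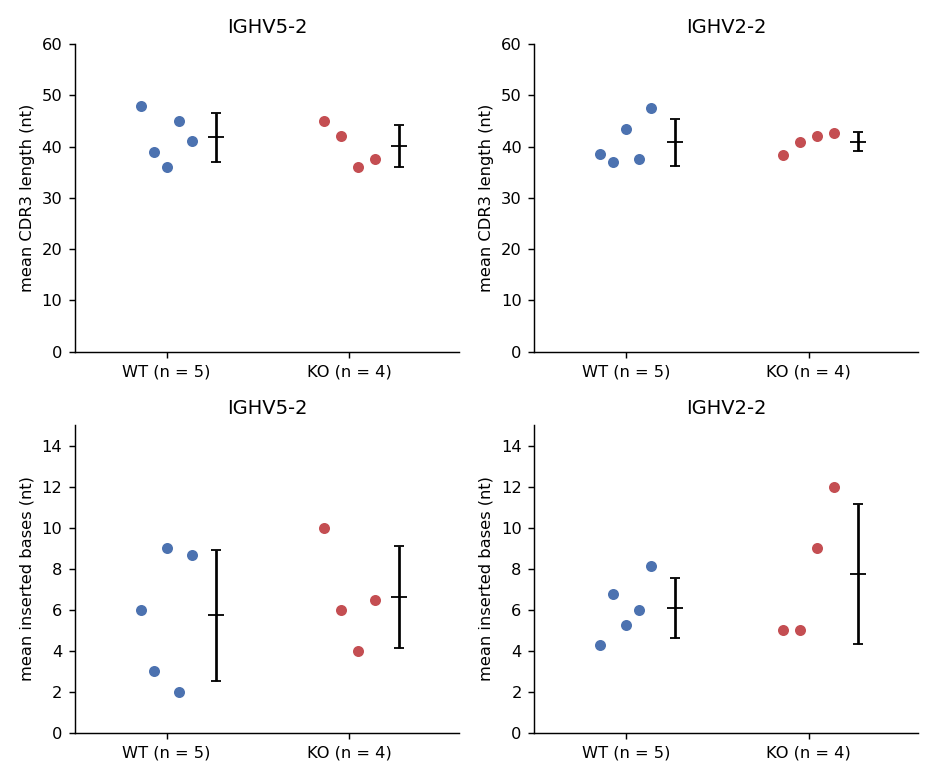
Mean CDR3 length (top) and mean number of inserted bases (bottom) of IGHV5-2 (left) and IGHV2-2 (right) joins, in nucleotides. Each point is a mouse, and the bar beside each group is the mean ± SD. The groups overlap in all panels, and KO 1500 is the highest IGHV2-2 mouse for inserted bases, at 12.

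V ends were trimmed in 8 of 17 IGHV5-2 joins and in 43 of 65 IGHV2-2 joins, against 27 of 151 and 38 of 73 joins of the other V genes. Trimming is counted from each gene's own whole V end. That end had 11 bases in IGHV5-2 but 9 in IGHV5-4, IGHV5-6, IGHV5-12 and IGHV5-17. A join cut back to the same base therefore counts as more trimmed in IGHV5-2, and the part of end length was not tested. Trimming reached 7 bases in IGHV5-2, in a WT 1536 join of 3 reads, and 8 in IGHV2-2. The inserted bases of that WT 1536 join hold CAAGAC, a run that is also in the whole IGHV5-2 end. Its V end may therefore be less trimmed than counted, which was not tested. P bases were left in 5 and 9 joins. Within mice, IGHV5-2 lost 0.98 ± 1.28 bases (SD, n = 9) against 0.40 ± 0.40 in the other V genes, a difference of 0.58 (95% interval -0.51 to 1.74, exact sign-flip p = 0.289). Without WT 1536 the IGHV5-2 difference was 0.38 bases (exact sign-flip p = 0.570). IGHV2-2 lost 1.89 ± 0.74 bases (SD, n = 9) against 1.37 ± 0.79, a difference of 0.52 (95% interval -0.33 to 1.26, exact sign-flip p = 0.184), and was higher in 7 of 9 mice. Without WT 1432 the IGHV2-2 difference was 0.82 bases (exact p = 0.0156), and weighted by reads it was 0.147 (exact p = 0.770). Over mice, IGHV5-2 was trimmed less than IGHV2-2 by mean (difference -0.91 bases, 95% interval -1.94 to 0.14, exact permutation p = 0.0857, adjusted p = 0.609). Without KO 1487 that difference was -1.17 (exact permutation p = 0.0202), and weighted by reads it was 0.15, in the opposite direction. These permutation tests ignore that most mice were read for both genes. Paired within 8 mice the difference was -0.82 bases (exact sign-flip p = 0.148). Differences of the size seen could not be told from the spread between mice.

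Clone sizes were uneven, and most reads were in IGHJ4 joins. Of the IGHV5-2 reads, 954 of 1224 (77.9%) were in the 4 IGHJ4 joins, with a median of 164 reads, against 4 reads in the 13 other joins. Of the IGHV2-2 reads, 10366 of 12637 (82.0%) were in the 18 IGHJ4 joins, with a median of 472 reads against 31. The same held in the other V genes, where IGHJ4 joins held 92.4% of the reads in Vh7183 and 98.1% in Vhq52. IGHV2-2 made up 47.1% of the clonotypes but 32.8% of the reads of Vhq52. Other JH genes also had large clones: 1 IGHV5-2 join to another JH gene had over 100 reads, against 2 to IGHJ4, and 3 IGHV2-2 joins had, against 13 to IGHJ4.

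There were 2 IGHV5-2 clonotypes over 10% of the productive reads of their library, both joined to IGHJ4. The KO 1421 clone shown above held 55.1% (95% Wilson interval 52.2 to 58.0) and the leading WT 1485 clone held 18.8% (16.8 to 20.9). WT 1485 held a second IGHV5-2 join that is like the first but 6 bases shorter.
WT 1485, IGHJ4, 270 reads: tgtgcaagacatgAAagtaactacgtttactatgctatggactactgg
WT 1485, IGHJ4, 4 reads: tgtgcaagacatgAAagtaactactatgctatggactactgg
Both have the same whole V end, 2 P bases, 2 inserted bases and IGHD2-6, with 11 and 6 D bases.

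IGHV2-2 had 9 clonotypes over 10% of the productive reads, in 7 of 9 mice, and 8 of them were IGHJ4 joins. They are shown as the joins that carry most IGHV2-2 reads, with inserted bases in capitals.
WT 1432, IGHJ4, 1136 reads: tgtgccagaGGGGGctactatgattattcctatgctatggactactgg
WT 1484, IGHJ4, 579 reads: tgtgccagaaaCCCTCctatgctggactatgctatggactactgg
WT 1485, IGHJ4, 1262 reads: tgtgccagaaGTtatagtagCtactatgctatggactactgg
WT 1536, IGHJ4, 467 reads: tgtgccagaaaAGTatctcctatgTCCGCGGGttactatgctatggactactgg
KO 1421, IGHJ4, 1235 reads: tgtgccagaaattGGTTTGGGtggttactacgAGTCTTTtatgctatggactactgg
KO 1487, IGHJ4, 829 reads: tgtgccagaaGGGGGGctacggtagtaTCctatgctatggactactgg
KO 1487, IGHJ3, 353 reads: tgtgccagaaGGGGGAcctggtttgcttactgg
KO 1500, IGHJ4, 1419 reads: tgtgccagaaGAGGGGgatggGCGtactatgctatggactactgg
KO 1500, IGHJ4, 1294 reads: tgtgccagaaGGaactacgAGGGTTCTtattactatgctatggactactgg
The WT 1485 clone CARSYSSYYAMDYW held 62.7% of its library (95% Wilson interval 60.6 to 64.8). The KO 1500 pair held 32.1% (30.7 to 33.5) and 29.3% (27.9 to 30.6). The IGHJ3 join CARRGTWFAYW of KO 1487 had no assigned D and held 11.8% (10.7 to 13.0). All 9 sequences differ.

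**Figure D5:**
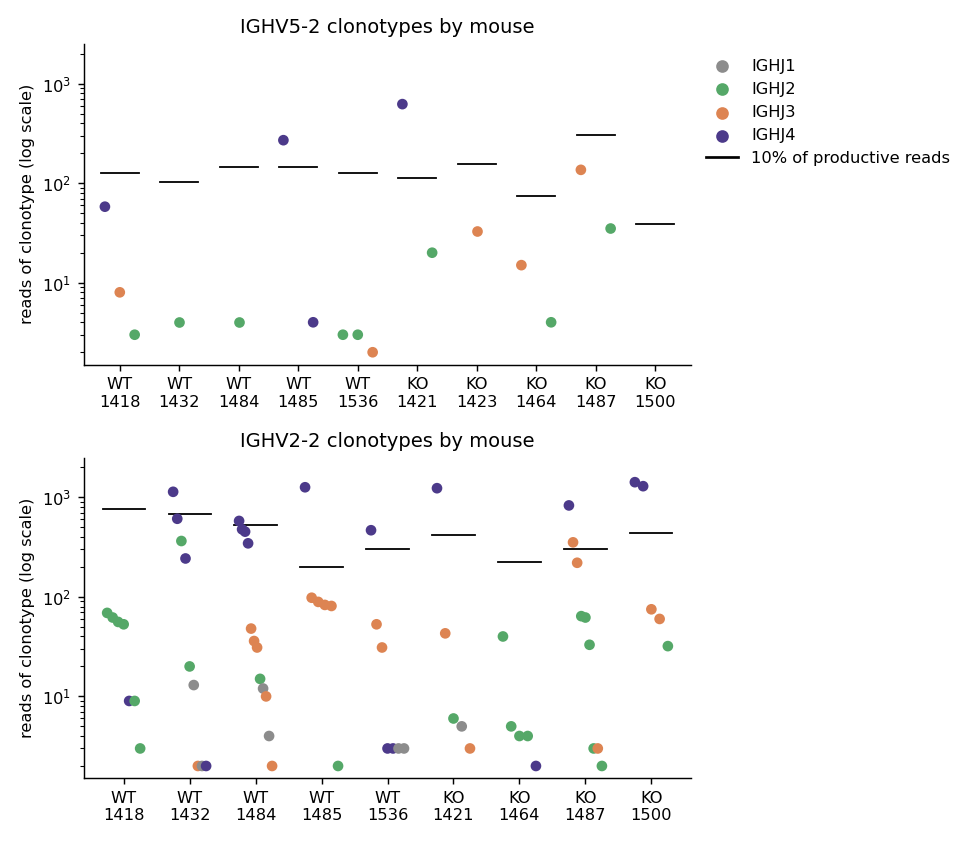
Reads of each IGHV5-2 (top) and IGHV2-2 (bottom) clonotype on a log scale, by mouse and coloured by JH gene, with a line at 10% of the productive reads of the library. IGHJ4 joins lie at the top of most mice that have one; KO 1500 has no IGHV5-2 clonotype.

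Among the productive clonotypes, 3 IGHV2-2 sequences were found in more than 1 mouse, each with many reads in 1 mouse and few in the others.
First sequence: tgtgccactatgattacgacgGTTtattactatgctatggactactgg
Second sequence: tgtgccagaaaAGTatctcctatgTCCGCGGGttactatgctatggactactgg
Last sequence: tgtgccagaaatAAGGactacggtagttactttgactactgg
The first had 452 reads in WT 1484, 3 in WT 1536 and 2 in KO 1464. The second had 467 reads in WT 1536 and 9 in WT 1418. The last, which encodes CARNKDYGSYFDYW, had 364 reads in WT 1432 and 5 in KO 1464. Joining of the same bases in separate mice and carry-over between libraries of a run cannot be told apart here.

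Several IGHV2-2 clonotypes were near copies of another in the same mouse. In all, 13 of 65 lay within 2 mismatches of a larger clonotype with the same CDR3 length and JH gene, against 0 of 17 for IGHV5-2. Most had few reads, but an IGHJ4 join of WT 1432 had 243 reads, 2 mismatches from a join with 609 reads. That pair was assigned different D genes, IGHD2-3 and IGHD1-1. WT 1418 held 4 close joins of IGHD1-1 and IGHJ2 with nearly equal reads.
WT 1418, 69 reads: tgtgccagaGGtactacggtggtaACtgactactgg
WT 1418, 62 reads: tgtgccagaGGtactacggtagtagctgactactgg
WT 1418, 56 reads: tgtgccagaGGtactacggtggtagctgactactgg
WT 1418, 53 reads: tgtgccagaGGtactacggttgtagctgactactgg
Counted from 1 at the 5′ end of the CDR3 and relative to the join with 69 reads, the join with 62 reads differs by G21A and A25G. The join with 56 reads differs by A25G alone, and the join with 53 reads by G21T and A25G. The last 3 encode the same residues and the join with 69 reads differs from them in 1 residue. With near copies merged, IGHV2-2 had 53 clonotypes, and the IGHJ4 difference from the other V genes was -30.3 points (exact p = 0.0156).

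Across mice, the gene whose share of clonotypes was most like that of IGHV5-2 was IGHV5-6 (Spearman rho 0.47 over 10 mice), followed by IGHV5-12 (rho 0.01). For IGHV2-2 the nearest were IGHV2-5 (rho -0.08 over 9 mice) and IGHV2-3 (rho -0.13). IGHV2-9-1 was the least like it (rho -0.71). Shares of a library sum to a whole, so genes of an amplicon pull against each other, and these values are a description.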

How the data were processed

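Reads of V family to JH4 amplicons had been assembled into CDR3 clonotypes by the authors; the table layout is that of MiXCR, which the series title names, with its version and any genome build not given in the sources used here. Per the file headers, the deposited values are a count of reads per clonotype and the fraction of all clone reads of the library, beside positions in the CDR3 from which V, inserted, D and J bases were cut. The table holds productive clonotypes of at least 2 reads. A total of 2 of its libraries matched no sample used here and were left out. The label text on libraries also names an RNA kit.

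The members and lists were chosen with earlier results of these data known. The mouse was the replicate; whether mice were littermates is not given. Per-mouse means over clonotypes were compared by exact permutation (KO against WT, or IGHV5-2 against IGHV2-2) or exact sign-flip tests (member against other V genes of the library), two-sided, with intervals from inverting the test. Without a filter, the smallest p was 0.00794 for permutation in each amplicon and 0.00391 for 9 sign flips. It is larger where an alternative leaves fewer mice. Adjustment was by Benjamini-Hochberg over 18 tests. V gene counts were fitted with edgeR 4.0.16 (R 4.3.3; limma 3.58.1) with total clonotypes as offset, for V genes with at least 10 clonotypes; DESeq2 1.42.0 was the alternative. Tests were tried on simulated data.

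Named were the members, V genes past the threshold, the 3 V genes with the most clonotypes per amplicon, the 2 most like each member, JH genes, D families, clonotypes over 10% of reads, and members in more than 1 mouse. IGHV5-12, IGHV2-9-1 and further clonotypes with a printed sequence were picked with their values in view where this rule did not name them. Mouse gene symbols matched 19 of 19 V names.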

Additional observations from a re-analysis of the deposited data

Results flagged for a closer look

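Dixon's test, which flags about 1 group in 20 by chance, was applied to 24 groups of mice and singled out 1 value. The IGHJ4 share of IGHV5-2 joins was 50% in KO 1421 and 0% in the other 3 KO mice with the gene. It rests on 2 joins in KO 1421.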

How the results depend on the processing

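Merging near copies was chosen after seeing the data. The V gene fits called 0 genes under every alternative. Several genotype differences near 0 changed sign. The IGHV5-2 share of clonotypes (KO minus WT) was 7.90 points with at least 10 reads, 8.26 weighted by reads and 0.67 with near copies merged, and -2.62 to 2.20 without 1 mouse. The IGHV2-2 share was -4.56 with at least 10 reads. Without 1 mouse, KO minus WT ran from -0.23 to 1.77 for inserted bases and from -26.7 to 4.17 points for the IGHJ4 share of IGHV5-2, and from -0.84 to 1.81 for the CDR3 length of IGHV2-2. The log2 fold changes under TMM were -0.25 (IGHV5-2) and -0.071 (IGHV2-2), and the first ran from -0.24 to 0.39 without 1 mouse. Against other V genes, the IGHV5-2 CDR3 length was 0.6 in the 2 mice with at least 3 clonotypes and the IGHV2-2 length 2.31 weighted by reads. The IGHJ4 difference of IGHV5-2 was -60.1 weighted by reads, -9.26 with at least 10 reads and -39.5 to -22.8 without 1 mouse. The IGHJ4 difference of IGHV2-2 was -24.7 without CDR3 sequences of another mouse, in 8 mice. IGHV2-2 trimming ran from 0.35 to 0.82 without 1 mouse. IGHV5-2 minus IGHV2-2 in CDR3 length was -0.74 with at least 10 reads, -4.39 weighted by reads, -0.25 with near copies merged and -0.98 to 1.13 without 1 mouse. In V trimming it was 0.15 weighted by reads and -1.22 to -0.73 without 1 mouse. With the mouse as replicate block, paired within 8 mice, these differences were 0.27 (exact sign-flip p = 0.891) and -0.82 (exact sign-flip p = 0.148), with no call changed. The causes were not tested. No KO mouse had 3 IGHV5-2 clonotypes, so that alternative gave no genotype value for IGHV5-2. Precision is limited by 1 to 3 IGHV5-2 joins a mouse.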

Other observations

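The single clone lists of the samples, which name V and D genes of the human locus, were matched by CDR3 sequence only. They held 11 of the 17 IGHV5-2 and 50 of the 65 IGHV2-2 sequences in the list of the same mouse. No IGHV5-2 sequence was in the Vh7183 list of another mouse, and 7 IGHV2-2 clonotypes had their sequence in the Vhq52 list of another mouse. Of the IGHV5-2 clonotypes 9 had fewer than 10 reads, as had 23 of the IGHV2-2 clonotypes. For IGHV5-2 these were 8 of 10 clonotypes in WT mice and 1 of 7 in KO mice. The median IGHV5-2 clonotype had 4 reads in WT mice and 33 in KO mice, pooled over mice and not tested.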
